A study of Mus musculus with 71 samples.

Results

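The Egr family comprised the genes Egr1, Egr2, Egr3 and Egr4, which encode zinc finger transcription factors. Its members were chosen by name: the rows of the raw count table whose Ensembl identifiers belong to these symbols, 4 of 57010 genes. All 4 were among the 30141 genes tested, those with at least 10 counts summed over 71 mice, so no member was lost to the filter on low counts. The mice were male C57BL/6J mice that entered their diet at 3 weeks of age and stayed on it for 12 weeks: normal chow ad libitum (NC ad lib), a high-fat, high-sugar diet ad libitum (HFS ad lib), or the same HFS diet with time-restricted feeding (HFS TRF), in which food was given from zeitgeber time (zt) 11 to zt1 during the last 4 weeks. None of the groups carried a transgene or deletion. Hippocampi came from home cage mice at zt3 (HC zt3) or zt15 (HC zt15), or from mice killed 1 h (ORM+1h) or 12 h (ORM+12h) after a 10-min training session for object recognition memory (ORM). Each of the 12 groups of diet and condition held 6 mice, except HFS TRF HC zt15 with 5. Mice were housed 6 to a cage, and the sources used here do not tie mice to cages. The HC zt3 and ORM+1h mice formed one experiment and the HC zt15 and ORM+12h mice another, so zt15 and zt3 differ in experiment as well as in time of day.

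RNA was taken by phosphorylated ribosomal protein S6 translating ribosome affinity purification (pS6-TRAP), in which an antibody against phosphorylated S6, a mark that rises in active neurons, captures ribosomes with the transcripts bound to them. Levels are given as CPM, the counts of a gene relative to the TMM-scaled library size, and are of ribosome-bound RNA from a bulk hippocampal lysate. Total counts per mouse ran from 34698914 to 62758570 (median 53999489), with TMM normalisation factors of 0.938 to 1.04. No marker of neurons, astrocytes, oligodendrocytes or their precursors, microglia, endothelium, choroid plexus or thalamus was at 0 in any mouse. The 10 neuron markers summed to between 11770 and 13360 CPM in NC ad lib ORM+1h mice and between 13390 and 15500 CPM in NC ad lib HC zt3 mice. Sums of the 5 choroid plexus markers differed widely between mice, from 32.93 CPM (NC ad lib ORM+1h) to 1389 CPM (NC ad lib HC zt15). Those of the 3 thalamus markers ran from 34.27 CPM (HFS ad lib ORM+1h) to 293.9 CPM (HFS TRF ORM+1h).

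Egr genes are immediate early genes: neuronal activity switches on their transcription within minutes, with no need for new protein, largely through ERK signalling to serum response factor (SRF) with its Elk partners and to CREB. Their products bind a shared GC-rich DNA motif and set the second wave of activity-dependent transcription. In hippocampus Egr1, also called Zif268, is a widely used marker of activated neurons and is required to maintain late long-term potentiation and to store long-term memory, while Egr2, also called Krox20, is best known for hindbrain patterning and peripheral myelination. Egr3 supports synaptic plasticity and is itself a target of Egr1 in some cells, and Egr4 is the member that lacks the domain bound by the Nab corepressors.

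In the GRCm39 annotation Egr2 (ENSMUSG00000037868) at chr10:67371305-67378018 on the plus strand, Egr3 (ENSMUSG00000033730) at chr14:70314350-70320063 on the plus strand and Egr4 (ENSMUSG00000071341) at chr6:85485678-85490675 on the minus strand. Their exons spanned 3405, 4708 and 4677 bases. An antisense gene, Gm67895, shares 1011 exonic bases with Egr4, and whether reads were assigned by strand is not given in the sources used here, so reads from this pair may not have been told apart. Gm66196, antisense to Egr2, shares 0 exonic bases with it.

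Promoter sequence was taken from the RefSeq table of 300-base windows on GRCm38.p6, which was searched for Egr2, Egr3 and Egr4. It gave 5 windows for Egr2, 1 for Egr4 and none for Egr3, and Egr1 was not part of the search. The stretches below are from the members for which windows were found. Capitals mark matches to 2 elements known from immediate early promoters. These are the CArG box bound by SRF, and TGACG, the core of the cAMP response element bound by CREB. TGACG reads CGTCA on the opposite strand. No match overlapped another. The Egr2 stretch lies at chr10:67537738-67537838 on the plus strand, from −131 to −31 relative to the start site at 0, and the Egr4 stretch at chr6:85513674-85513786 on the minus strand, from −197 to −85, both on GRCm38. Each is written 5′ to 3′ on the strand of its gene.
Egr2 promoter stretch: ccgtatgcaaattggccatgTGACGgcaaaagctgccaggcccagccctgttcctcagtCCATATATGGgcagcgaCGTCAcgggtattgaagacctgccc
Egr4 promoter stretch: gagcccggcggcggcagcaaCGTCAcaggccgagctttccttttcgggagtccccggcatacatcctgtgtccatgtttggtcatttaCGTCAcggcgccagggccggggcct

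The same letters were found on GRCm39 at chr10:67373568-67373668, outside the exons of Egr2, and at chr6:85490656-85490768, of which 20 bases are exonic in Egr4 in that annotation. Exons of other genes were not checked. The Egr2 stretch held a CArG box with the letters CCATATATGG, with TGACG upstream of it and, downstream of it, a match on the opposite strand, whereas the Egr4 stretch held 2 matches on the opposite strand and the Egr4 window held no CArG box. Of the 5 Egr2 windows 4 held a CArG box and 3 held TGACG on either strand. The same CArG box and TGACG matches recur in 3 windows that overlap each other, and the remaining CArG box, with the letters CCTTTTTTGG, lies in a window that overlaps none of the others. Among all 32851 promoter windows of the table, 1.63% held a CArG box and 20.8% held TGACG on either strand. GCGNGGGCG, the motif that Egr proteins bind, was in 0 of the 5 Egr2 windows and in 5.55% of all windows. A match describes letters in a window and not a bound site.

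Training was followed at 1 h by higher levels of all 4 members on all 3 diets. The first comparison asked what changed 1 h after ORM training, against HC zt3 mice of the same diet. With edgeR's quasi-likelihood test and Benjamini-Hochberg adjustment over all genes at 0.05, 4 of 4 members were called higher in NC ad lib mice, where 4.03% of all genes were; 4 of 4 were called higher in HFS ad lib mice, where 0.74% of all genes were; and 4 of 4 were called higher in HFS TRF mice, where 2.24% of all genes were. In every case each trained mouse lay above each home cage mouse of its diet, a separation seen for 3.19%, 0.819% and 2.14% of all genes. The median log2 fold change of the 4 members was 1.81, 1.60 and 1.74, against 0.00, 0.00 and −0.01 over all genes. In pS6-TRAP RNA of bulk tissue, more RNA per cell cannot be told apart from more cells carrying it or from more capture of their ribosomes. The only comparison group was home cage mice, so training cannot be told apart from the handling and arena exposure that came with it. The paper gives the training as a span of hours and not a single time. Trained and home cage mice may therefore also differ somewhat in time of day.

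**Figure D1:**
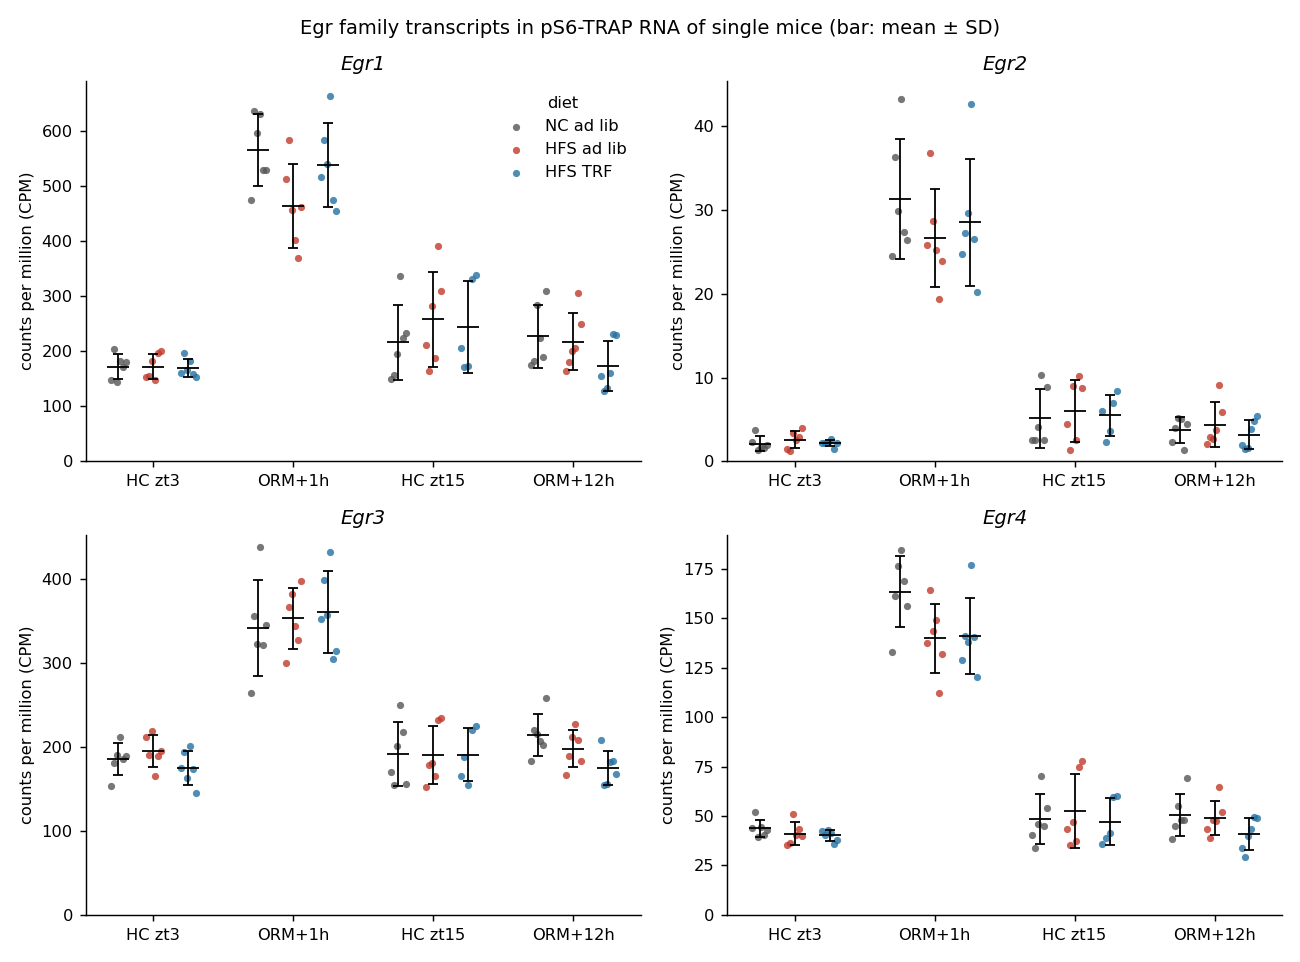
Level of each Egr member in every mouse, in CPM on a linear axis, by condition and, in colour, by diet; each point is 1 mouse and the bars are the group mean ± SD. The 18 ORM+1h mice sit above all HC zt3 mice of their diet in each panel, and the HC zt15 and ORM+12h groups overlap with each other.

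Egr2 rose most. Its levels at HC zt3 were low, at 1.39 to 3.76 CPM (median 1.79) in NC ad lib mice, and they reached 24.6 to 43.3 CPM (median 28.7) at ORM+1h. HFS ad lib mice went from 1.25 to 3.91 CPM (median 2.69) at HC zt3 to 19.4 to 36.9 CPM (median 25.5) at ORM+1h. For HFS TRF the HC zt3 mice held 1.49 to 2.68 CPM (median 2.21) and the ORM+1h mice 20.3 to 42.6 CPM (median 26.9). The groups were far apart on each diet: the lowest trained mouse was 6.54-fold, 4.96-fold and 7.57-fold above the highest home cage mouse on NC ad lib, on HFS ad lib and on HFS TRF. The fitted log2 fold changes were 3.91 ± 0.41 (SE), 3.37 ± 0.39 and 3.70 ± 0.40 (edgeR adjusted p = 1.69e-10, 9.82e-09 and 4.38e-10), or 15.01-fold, 10.3-fold and 13.0-fold.

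Egr4, the member without a Nab-binding domain, changed with the smallest p of all genes tested on every diet. NC ad lib mice had 39.4 to 51.8 CPM (median 43.4) at HC zt3 and 133 to 184 CPM (median 165) at ORM+1h. The corresponding HFS ad lib values were 35.2 to 50.9 CPM (median 40.2) and 112 to 164 CPM (median 140.5). Under HFS TRF, Egr4 moved from 35.9 to 43.1 CPM (median 41.0) to 120.2 to 177 CPM (median 139). These groups did not overlap, and the home cage mice of each diet lay close together. The log2 fold changes were 1.90 ± 0.16, 1.77 ± 0.15 and 1.81 ± 0.15 (edgeR adjusted p = 2.66e-14, 6.15e-13 and 2.17e-13), or 3.73-fold, 3.404-fold and 3.51-fold. The other members ranked 5th to 22nd by p among all genes in NC ad lib mice, 8th to 13th in HFS ad lib mice and 8th to 10th in HFS TRF mice.

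Egr1 (ENSMUSG00000038418), the marker gene of activated neurons, lies on GRCm39 at chr18:34992876-34998049 on the plus strand with 4496 exonic bases. Its increase came close to that of Egr4. At HC zt3 it stood at 144 to 204 CPM (median 176) in NC ad lib mice and at ORM+1h at 474 to 636 CPM (median 563). HFS ad lib mice held 148 to 199.7 CPM (median 168) at HC zt3 and 369.5 to 583 CPM (median 459) at ORM+1h. In the HFS TRF groups it was 153 to 196 CPM (median 163) and 455 to 664 CPM (median 527). Trained HFS ad lib mice came nearest to their home cage mice, with the lowest trained mouse 1.85-fold above the highest home cage mouse, against 2.33-fold in NC ad lib and 2.32-fold in HFS TRF. The log2 fold changes were 1.72 ± 0.18, 1.43 ± 0.18 and 1.67 ± 0.18 (edgeR adjusted p = 1.69e-10, 6.11e-08 and 3.88e-10), or 3.30-fold, 2.70-fold and 3.18-fold.

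Egr3, which acts in synaptic plasticity, rose least. NC ad lib mice had 154 to 212 CPM (median 188) at HC zt3 and 264 to 438 CPM (median 334) at ORM+1h. HFS ad lib mice had 165 to 219 CPM (median 193) and 300.5 to 398 CPM (median 356). HFS TRF mice had 146 to 202 CPM (median 174) and 305 to 433 CPM (median 355). The groups still did not overlap, but the gap was narrow, the lowest trained mouse being 1.25-fold, 1.37-fold and 1.51-fold above the highest home cage mouse. The log2 fold changes were 0.88 ± 0.11, 0.86 ± 0.11 and 1.04 ± 0.11 (edgeR adjusted p = 4.12e-08, 1.66e-07 and 3.52e-10), or 1.84-fold, 1.81-fold and 2.05-fold.

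**Figure D2:**
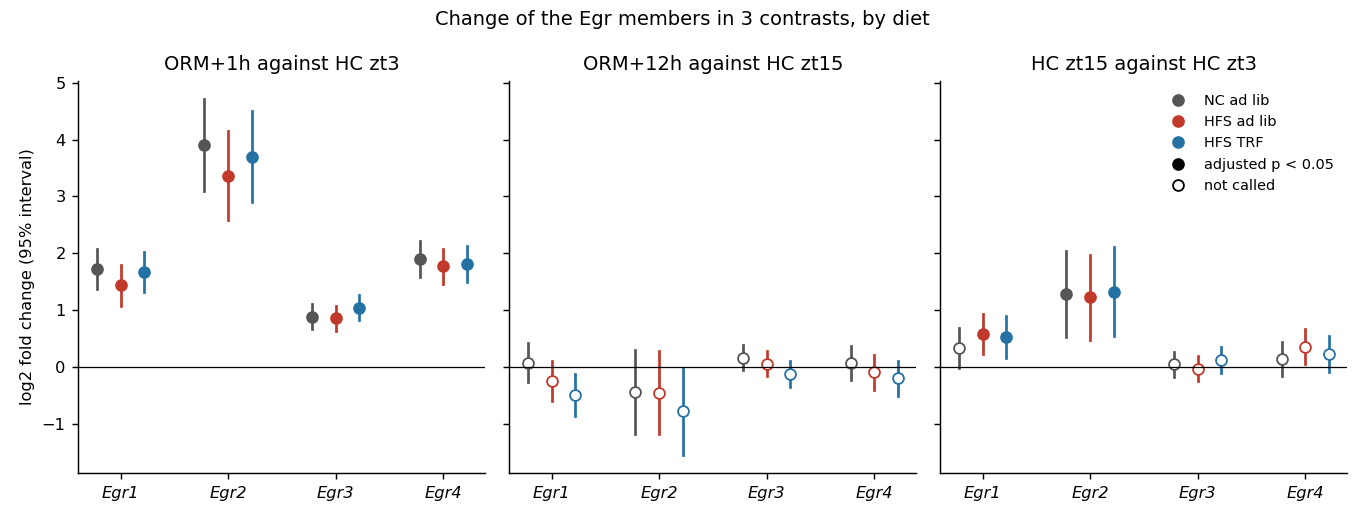
Log2 fold change of each Egr member with its 95% interval, on each diet, for ORM+1h against HC zt3, ORM+12h against HC zt15 and HC zt15 against HC zt3; filled symbols have an adjusted p under 0.05. The ORM+1h estimates run from 0.86 (Egr3, HFS ad lib) to 3.91 (Egr2, NC ad lib), with all intervals above 0, and the ORM+12h estimates run from −0.78 to 0.16.

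A second question was whether the diet altered the early response. Differences in the ORM+1h change between diets were called for 0 of 4 members in each of the 3 pairs of diets (edgeR and DESeq2; 0 members at an unadjusted p under 0.05 in edgeR), and for 0% of all genes. The intervals leave room for sizeable differences. Against NC ad lib, the change in HFS ad lib mice differed by −0.29 in log2 for Egr1 (95% interval −0.79 to 0.21), by −0.54 for Egr2 (−1.58 to 0.50), by −0.02 for Egr3 (−0.33 to 0.29) and by −0.13 for Egr4 (−0.56 to 0.29). The change under HFS TRF, set against HFS ad lib, differed by 0.24 for Egr1 (−0.26 to 0.73), 0.34 for Egr2 (−0.70 to 1.37), 0.18 for Egr3 (−0.13 to 0.49) and 0.04 for Egr4 (−0.38 to 0.47).

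Astrocyte markers moved with the training groups. All 5 markers (Aqp4, Gfap, Slc1a3, Aldoc and Gja1) were called higher at ORM+1h on the NC ad lib diet and under HFS TRF, and 0 of 5 on HFS ad lib, with 4 of 5 at an unadjusted p under 0.05 (edgeR). Their summed level was 639.7 to 1058 CPM at HC zt3 and 1507 to 2878 CPM at ORM+1h on NC ad lib, 496.9 to 2141 and 1005 to 2424 CPM on HFS ad lib, and 449.3 to 1421 and 1193 to 2312 CPM on HFS TRF. The sums overlapped between the groups on HFS ad lib and HFS TRF, and their medians were higher at ORM+1h on all 3 diets, at 743.6 and 2074 CPM, 580.3 and 1426 CPM, and 669.4 and 1878 CPM. In NC ad lib mice 2 of 10 neuron markers were called lower. Microglia sums did not overlap on NC ad lib (35.1 to 41.9 CPM at HC zt3 and 27.5 to 34.9 CPM at ORM+1h) or HFS TRF (40.1 to 44.9 and 25.6 to 37.1 CPM), where 0 of 5 markers were called (edgeR; 0 and 2 at an unadjusted p under 0.05). The part of these markers in the Egr changes was not tested on any diet.

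Because the members rose by different amounts, the make-up of the family changed. On the scale of CPM per kilobase of exon, Egr1 and Egr3 were about level at HC zt3, Egr1 making up 42.8% to 44.7% of the family sum over the diets and Egr3 44.2% to 46.5%. At ORM+1h Egr1 held 47.6% to 52.0% and Egr3 29.8% to 35.0%. Egr4 went from 9.85% to 10.7% at HC zt3 to 12.9% to 14.4% at ORM+1h. Egr2 stayed the least abundant member per length, at 0.698% to 0.836% and then 3.53% to 3.76%.

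Ratios between members within a mouse, in which library scaling cancels, tested these unequal changes. An exact permutation test of 6 against 6 mice (two-sided, smallest possible p = 0.00216) was run for the 6 pairs on the 3 diets, adjusted over the 18 tests. Of the 18 ratios 17 changed at an adjusted p under 0.05. Every pair except Egr1/Egr4 changed without overlap of the groups on all 3 diets (exact permutation, adjusted p = 0.0026). The log2 ratio of Egr2 to Egr3 shifted most, from −6.09 ± 0.59 (SD, n = 6) to −2.99 ± 0.15 on NC ad lib, from −5.89 ± 0.67 to −3.28 ± 0.29 on HFS ad lib and from −5.87 ± 0.30 to −3.22 ± 0.24 under HFS TRF. The log2 ratio of Egr1 to Egr4 shifted least, by −0.17 on NC ad lib, −0.34 on HFS ad lib and −0.14 on HFS TRF (exact permutation, adjusted p = 0.0412, 0.0122 and 0.0671), and these groups overlapped.

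The wider set of early genes was read from lists that were chosen with earlier results of these data known. Of 16 other immediate early transcription factors, 14, 14 and 15 were called higher at ORM+1h on NC ad lib, on HFS ad lib and on HFS TRF and 0 lower. Of all genes 4.03%, 0.74% and 2.24% were called higher there. The medians of the 16 in log2 fold change were 1.44, 1.35 and 1.40. The smallest adjusted p on NC ad lib belonged to Junb (1.57 ± 0.15), Fosb (2.63 ± 0.29), Atf3 (2.02 ± 0.24) and Fos (2.70 ± 0.33), all components of AP-1 or its relatives. Klf2 was called on none of the diets, Jun was missed on NC ad lib and Klf4 on HFS ad lib. Egr2 had a larger estimate than each of these 16 genes on every diet, and Egr3 a smaller one than their median.

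**Figure D3:**
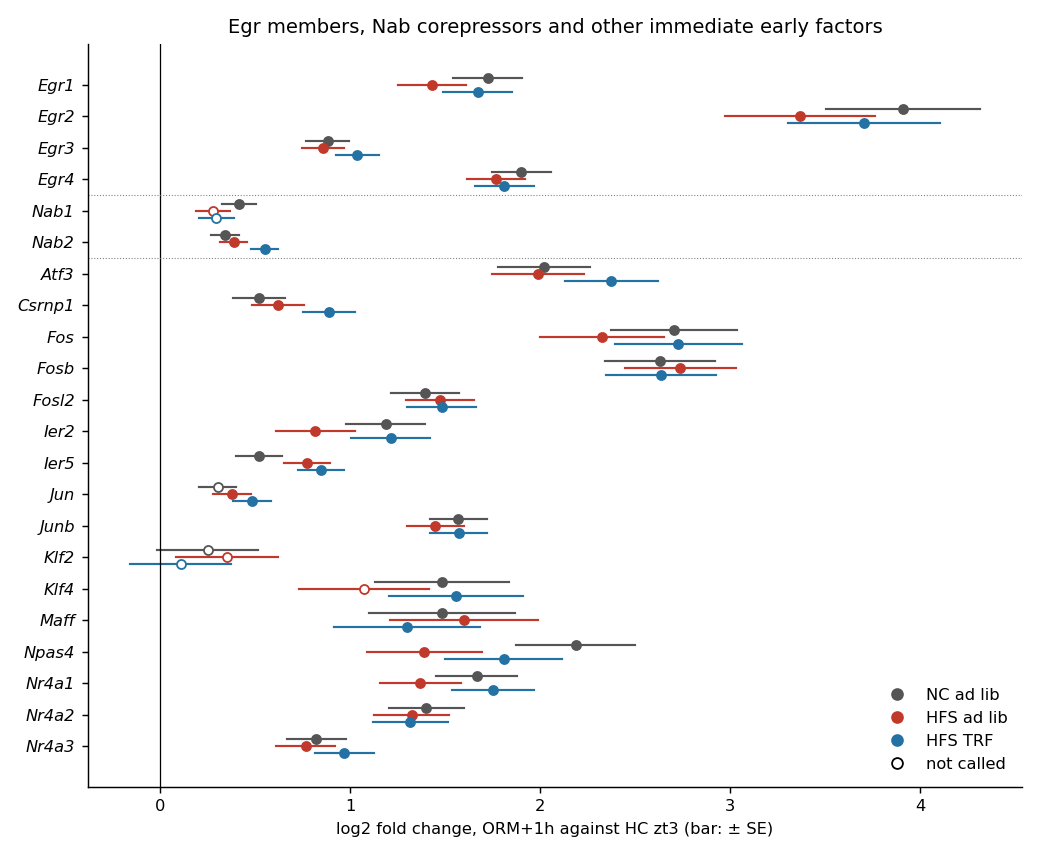
Log2 fold change at ORM+1h against HC zt3 for the 4 Egr members, the other immediate early transcription factors and the Nab corepressors, on each diet, with bars of ± 1 SE and open symbols for genes not called. Egr2 lies highest at 3.37 to 3.91, and Nab1 and Nab2 lie between 0.28 and 0.55.

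The corepressors Nab1 and Nab2, which bind Egr1, Egr2 and Egr3 and dampen their activity, moved less. Nab2 was called higher on all 3 diets, by 0.34 ± 0.07, 0.39 ± 0.07 and 0.55 ± 0.07 in log2 (NC ad lib, HFS ad lib, HFS TRF). Nab1 was called on NC ad lib alone (0.41 ± 0.09, edgeR adjusted p = 0.00126) and its estimates on HFS ad lib and HFS TRF were 0.28 ± 0.09 and 0.30 ± 0.09 (edgeR adjusted p = 0.124 and 0.055).

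Among 18 kinases and factors upstream of the family, 3 were called higher and 3 lower in NC ad lib mice. Of all genes 4.03% were called higher and 1.7% lower there. The shares were 0.74% and 0.491% in HFS ad lib mice, and 2.24% and 0.624% in HFS TRF mice. The higher ones were Crem, a CREB relative with an inducible repressor form (0.63 ± 0.13), the SRF partner Elk4 (0.48 ± 0.11) and Creb1 itself (0.30 ± 0.09). The lower ones were the kinase ERK1 gene Mapk3 (−0.23 ± 0.06), its activating kinase gene Map2k1 (−0.22 ± 0.07) and the CREB coactivator Crtc1 (−0.26 ± 0.08). In HFS ad lib mice 1 was called, Crem (0.71 ± 0.13), and in HFS TRF mice 3 higher (Elk4, Crem and Srf) and 1 lower (Mapk3).

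Of 8 genes listed as targets of Egr proteins in neurons, Arc, which encodes a synaptic protein that controls AMPA receptor traffic, was called higher on all 3 diets, by 1.76 ± 0.20, 1.38 ± 0.20 and 1.96 ± 0.20 in log2. Bdnf, a neurotrophin, was called higher on HFS TRF (0.58 ± 0.14), and Cdk5r1 and Syn1, an activator of Cdk5 and a synaptic vesicle protein, lower on NC ad lib (−0.21 ± 0.06 and −0.23 ± 0.07). On NC ad lib 1.7% of all genes were called lower. Of the 4 peripheral myelin genes known as Egr2 targets in Schwann cells, 0 were called on any diet (edgeR; 1, 0 and 1 at an unadjusted p under 0.05).

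The third comparison asked whether the change persisted at 12 h. ORM+12h mice were set against HC zt15 mice, and 0 of 4 members were called on any diet by edgeR or by DESeq2. Of all genes, edgeR called 0.209% in either direction on NC ad lib, 0.179% on HFS ad lib and 2.46% on HFS TRF. At an unadjusted p under 0.05 there were 0, 0 and 2 members, the 2 being Egr1 and Egr2 in HFS TRF mice, both with lower estimates in the trained group. Such a p was held by 5050, 5129 and 6477 of the 30141 genes on these diets.

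Egr1 in the 5 HFS TRF HC zt15 mice was 171, 173, 206, 331 and 338 CPM, and in the 6 ORM+12h mice 128 to 230.3 CPM (median 157). The groups overlapped, with 2 home cage mice above all trained ones. The log2 difference was −0.50 (95% interval −0.87 to −0.13, edgeR adjusted p = 0.109). Egr2 was 2.34, 3.64, 6.00, 6.94 and 8.41 CPM in the same home cage mice and 1.46 to 5.35 CPM (median 2.90) in the trained mice, a log2 difference of −0.78 (−1.56 to −0.01, edgeR adjusted p = 0.223). Summed markers of several cell types, neurons among them, separated the same groups without overlap. Oligodendrocyte sums were 596.5 to 778.5 CPM at HC zt15 and 826.7 to 996.6 CPM at ORM+12h (1 of 4 called, Mbp higher), and neuron sums 12890 to 14170 and 14270 to 16120 CPM (1 of 10 called, Slc17a7 higher). Astrocyte sums were 1610 to 2379 and 1078 to 1576 CPM (0 of 5 called by edgeR, 0 at an unadjusted p under 0.05). The part of these markers in the Egr values was not tested.

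On the ad lib diets, Egr1 spanned 149.6 to 337 CPM at HC zt15 and 174 to 310.1 CPM at ORM+12h in NC ad lib mice, and 165 to 391 and 164 to 305 CPM in HFS ad lib mice. Egr2 spanned 2.48 to 10.3 and 1.37 to 5.15 CPM on NC ad lib, and 1.39 to 10.2 and 2.01 to 9.14 CPM on HFS ad lib. The ranges overlapped in each case. The log2 differences were 0.07 for Egr1 (95% interval −0.28 to 0.42) and −0.45 for Egr2 (−1.19 to 0.29) on NC ad lib, and −0.24 (−0.60 to 0.11) and −0.46 (−1.19 to 0.27) on HFS ad lib. Egr3 and Egr4 differed by −0.21 to 0.16 in log2 over the 3 diets, with intervals between −0.52 and 0.38. The ratios between members changed in 0 of 18 tests (exact permutation, lowest adjusted p = 0.429; 0 of 18 at an unadjusted p under 0.05). Differences of the ORM+12h change between diets were called for 0 of 4 members in each pair (edgeR and DESeq2), where 0.106% of all genes were called for HFS ad lib against NC ad lib and 0% in the other pairs. Only Egr1, between HFS TRF and NC ad lib, had an unadjusted p under 0.05 there (difference −0.57, 95% interval −1.08 to −0.06, edgeR adjusted p = 0.292). Such a p was held by 4070 of the 30141 genes in that pair.

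The change at 1 h was larger than that at 12 h, tested as the difference of both changes. All 4 members were called on each diet, against 4.73%, 0.62% and 2.69% of all genes called in that direction. The differences on NC ad lib were 1.65 ± 0.25 for Egr1, 4.36 ± 0.54 for Egr2, 0.72 ± 0.16 for Egr3 and 1.83 ± 0.21 for Egr4. On HFS ad lib they were 1.68 ± 0.25, 3.83 ± 0.53, 0.80 ± 0.16 and 1.87 ± 0.21, and on HFS TRF 2.17 ± 0.26, 4.49 ± 0.55, 1.16 ± 0.16 and 2.02 ± 0.22 (largest edgeR adjusted p = 0.00209). Each change has its own home cage mice, and the time after training cannot be told apart from the experiment.

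At 12 h few of the listed early genes were called. Of the 16 other immediate early factors, 0 were called on any diet (edgeR; 2, 1 and 5 at an unadjusted p under 0.05 on NC ad lib, on HFS ad lib and on HFS TRF), and 0 of 2 corepressors were (0 at an unadjusted p under 0.05). Among upstream genes Mrtfa, an SRF coactivator, was called higher on NC ad lib (0.30 ± 0.07), and Mapk3 (0.25 ± 0.06) and Elk1 (0.32 ± 0.09) on HFS TRF. Of the listed targets, Dlg4, which encodes the postsynaptic scaffold PSD-95, was called higher on HFS TRF (0.38 ± 0.09).

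Home cage mice were then compared between zt15, in the dark phase, and zt3, in the light phase. Egr2 was called higher at zt15 on all 3 diets, Egr1 was called higher on HFS ad lib and HFS TRF, and Egr3 and Egr4 were called on none. This makes 1, 2 and 2 of 4 members, where 5.18%, 3.88% and 5.95% of all genes were called higher. The time of day cannot be told apart from the experiment here.

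Egr2 held 2.48 to 10.3 CPM (median 3.30) at HC zt15 on NC ad lib, 1.39 to 10.2 CPM (median 6.58) on HFS ad lib, and 2.34 to 8.41 CPM on HFS TRF. Above the highest HC zt3 mouse of the same diet lay 3 of 6, 4 of 6 and 4 of 5 mice, and the groups overlapped on every diet. The log2 differences were 1.28 ± 0.38, 1.23 ± 0.37 and 1.32 ± 0.39 (edgeR adjusted p = 0.0157, 0.0221 and 0.013). On NC ad lib the call was lost without HC zt15 replicate 4 (0.97) or replicate 6 (1.05). On HFS ad lib it was lost without HC zt3 replicate 1 or 2 or HC zt15 replicate 3, 5 or 6 (1.02 to 1.11), and under HFS TRF without HC zt15 replicate 5 (1.11).

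Egr1 reached 165 to 391 CPM (median 247) at HC zt15 on HFS ad lib and 171 to 338 CPM on HFS TRF. There 4 of 6 and 3 of 5 mice lay above the highest HC zt3 mouse, and the rest lay within the zt3 range. The log2 differences were 0.58 ± 0.18 and 0.53 ± 0.18 (edgeR adjusted p = 0.0205 and 0.041), and 0.33 (95% interval −0.02 to 0.68) on NC ad lib. On HFS ad lib the call was lost without HC zt3 replicate 1 or 4 or HC zt15 replicate 5 or 6 (0.43 to 0.55). Under HFS TRF it was lost without HC zt3 replicate 1, 3, 4, 5 or 6 or HC zt15 replicate 4 or 5 (0.38 to 0.55), so that it held in 4 of 11 fits that each left out 1 mouse.

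Egr4 gave log2 differences of 0.14 (95% interval −0.16 to 0.44), 0.36 (0.05 to 0.66, edgeR adjusted p = 0.123) and 0.23 (−0.09 to 0.55), and Egr3 of 0.05 (−0.17 to 0.27), −0.03 (−0.25 to 0.19) and 0.12 (−0.11 to 0.35) on NC ad lib, on HFS ad lib and on HFS TRF. Differences of the zt15 change between diets were called for 0 of 4 members (edgeR and DESeq2; 0 at an unadjusted p under 0.05 in edgeR) and for 0% of all genes. Of the 16 other early factors 2, 5 and 9 were called higher at zt15, among them Klf4 on all 3 diets (1.08 ± 0.35, 1.16 ± 0.34 and 1.85 ± 0.36), and Arc was called higher on all 3 (0.80 ± 0.20, 0.61 ± 0.20 and 1.14 ± 0.20). Of the 18 upstream genes 3, 7 and 7 were called in either direction, where 11.7%, 10.4% and 14.2% of all genes were. Astrocyte markers were called higher in 5, 1 and 5 of 5 cases here as well. Neuron markers were called in both directions, 2 higher and 1 lower of 10 on NC ad lib, 2 higher on HFS ad lib and 1 lower under HFS TRF. Microglia markers were called higher in 2 of 5 cases on HFS ad lib, where their sum was 34.6 to 51.6 CPM at HC zt3 and 34.1 to 264.4 CPM (median 39.4) at HC zt15. The part of these markers in the result was not tested.

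Mice differed more from each other at zt15 than at zt3. The pooled within-group SD of log2 CPM was 0.46 at HC zt15 and 0.18 at HC zt3 for Egr1, a ratio of 2.63. For Egr2 it was 0.97 and 0.50 (ratio 1.94), for Egr3 0.26 and 0.16 (1.68) and for Egr4 0.41 and 0.15 (2.75). At ORM+12h the SDs were 0.35, 0.79, 0.16 and 0.28, and at ORM+1h 0.20, 0.32, 0.20 and 0.18, in the same order of members. The spread of the trained groups at 1 h was thus near that of the HC zt3 mice, apart from Egr2, whose relative spread was 0.646 of its HC zt3 value. These ratios are given without a test.

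The diets were last compared within each condition, in 12 comparisons of HFS ad lib, HFS TRF and NC ad lib. In all 12, 0 of 4 members were called by edgeR, and 0 by DESeq2. Of all genes 0% were called at HC zt3 and at ORM+1h, and at HC zt15 0.063% for HFS ad lib against NC ad lib and 0% for the other pairs. At ORM+12h the shares were 2.27% for HFS ad lib against NC ad lib and 0.00664% for HFS TRF against HFS ad lib. The largest number at an unadjusted p under 0.05 was 3, for HFS TRF against NC ad lib at ORM+12h, where 8.78% of all genes were called in either direction. An unadjusted p under 0.05 was held by 7371 of the 30141 genes in this comparison. There Egr1 was 128 to 230.3 CPM against 174 to 310.1 CPM (log2 difference −0.39, 95% interval −0.75 to −0.04), Egr3 was 154 to 208 CPM against 184 to 258 CPM (−0.29, −0.51 to −0.07) and Egr4 was 29.3 to 49.4 CPM against 38.5 to 69.2 CPM (−0.31, −0.61 to −0.01). The ranges overlapped in each case (edgeR adjusted p = 0.148, 0.0809 and 0.19), and Egr3 passed the threshold without HFS TRF ORM+12h replicate 1 (−0.35, edgeR adjusted p = 0.0436). In the same comparison oligodendrocyte marker sums were 826.7 to 996.6 CPM under HFS TRF and 567.2 to 805.2 CPM on NC ad lib, without overlap, with 2 of 4 markers called higher (Mbp and Mog) and 1 of 10 neuron markers called lower (Map2). Their part in the Egr values was not tested. At HC zt3 the log2 differences between diets lay from −0.24 to 0.31 over the members, and at ORM+1h from −0.29 to 0.22.

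Ordered by mean level, the 12 groups fell into the same 2 blocks for every member. The 3 ORM+1h groups came first and were separated from the fourth group by more than the larger of the neighbouring SDs: 463.9 ± 76.5 against 257.6 ± 85.7 CPM for Egr1, 26.6 ± 5.85 against 6.04 ± 3.72 CPM for Egr2, 341.8 ± 57.1 against 214.6 ± 25.0 CPM for Egr3 and 139.8 ± 17.4 against 52.5 ± 18.7 CPM for Egr4 (SD, n = 6). Below that step no neighbours differed by more than their SD. Within the ORM+1h block the one gap past the SD was for Egr4, between NC ad lib (163.4 ± 18.03 CPM) and HFS TRF (141.0 ± 19.4 CPM).

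Within groups the members varied together from mouse to mouse. Deviations of log2 CPM from the group mean were correlated over 71 mice for the 6 pairs of members, with p from 100000 permutations within groups and adjustment over the 6 pairs. Egr1 went with Egr4 (Pearson r = 0.865, Spearman rho = 0.825) and Egr2 (r = 0.830, rho = 0.820), and Egr2 with Egr4 (r = 0.783, rho = 0.782), each with a permutation p of 1e-05, the smallest these permutations can give. The pairs with Egr3 were looser: r = 0.627 with Egr1, 0.595 with Egr4 and 0.369 with Egr2 (rho = 0.620, 0.515 and 0.358, the last with permutation adjusted p = 0.00786 for r and 0.00764 for rho, the others at 0.000156 or less). Without the 2 mice farthest from the median, r ran from 0.329 (Egr2 and Egr3) to 0.840 (Egr1 and Egr4). The values of a mouse share 1 library, so its depth and composition enter both axes.

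**Figure D4:**
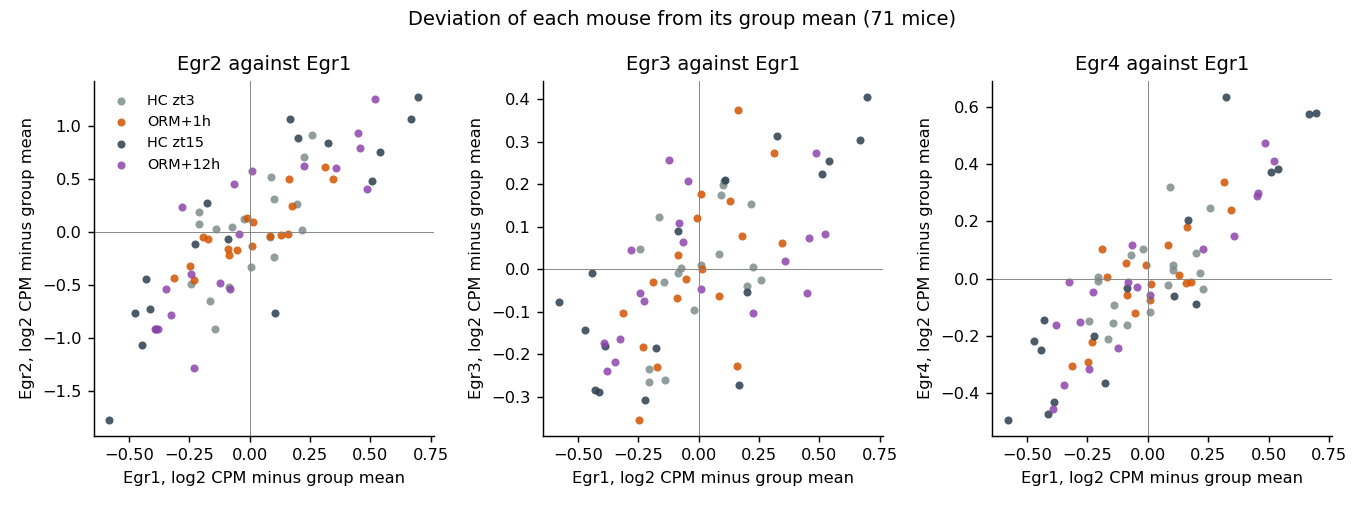
Deviation of each mouse from its group mean in log2 CPM, Egr1 on the horizontal axis against Egr2, Egr3 and Egr4 on the vertical axes, for 71 mice; colours give the condition. The cloud is tight for Egr4 (r = 0.865) and Egr2 (r = 0.830) and wider for Egr3 (r = 0.627).

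In each experiment alone, r was 0.705 and 0.859 for Egr1 and Egr2, 0.691 and 0.905 for Egr1 and Egr4, 0.791 and 0.781 for Egr2 and Egr4, 0.562 and 0.681 for Egr1 and Egr3, 0.435 and 0.685 for Egr3 and Egr4, and 0.260 and 0.429 for Egr2 and Egr3 (36 HC zt3 and ORM+1h mice, then 35 HC zt15 and ORM+12h mice). The relation of Egr2 with Egr3 missed the threshold among the 36 (permutation adjusted p = 0.129) and passed it among the 35 (permutation adjusted p = 0.0242). That of Egr3 with Egr4 among the 36 passed by r (permutation adjusted p = 0.0177) and not by rho (0.308, permutation adjusted p = 0.107). The pairs with Egr3 also differed by condition, given here without a test. In the order HC zt3, ORM+1h, HC zt15 and ORM+12h, r was −0.071, 0.696, 0.462 and 0.378 for Egr2 and Egr3. It was 0.145, 0.626, 0.787 and 0.463 for Egr3 and Egr4, and 0.477, 0.622, 0.783 and 0.489 for Egr1 and Egr3. The mouse highest in Egr1 was also highest in at least 1 other member in 10 of the 12 groups, and in all 4 members in 3 groups: NC ad lib HC zt15 replicate 4, HFS TRF ORM+1h replicate 4 and HFS TRF HC zt15 replicate 5.

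The same deviations were set against library size and the summed markers of neurons, astrocytes and choroid plexus, 16 relations in all. Over 71 mice none of the 16 passed an adjusted p of 0.05 (permutation). The strongest was that of Egr3 with the astrocyte sum (r = −0.347, rho = −0.361, permutation adjusted p = 0.0624 and 0.0608). Among the 35 HC zt15 and ORM+12h mice it was r = −0.606 and rho = −0.637 (permutation adjusted p = 0.00992 and 0.0024; r = −0.559 without the 2 mice farthest from the median), and among the 36 HC zt3 and ORM+1h mice r = −0.146 and rho = −0.134. Egr4 gave r = −0.422 and rho = −0.517 with the astrocyte sum among the 35 (permutation adjusted p = 0.186 and 0.0258). With library size Egr4 gave r = −0.362 among the 35 (permutation adjusted p = 0.223), and r = −0.139 without the 2 mice farthest from the median. For Egr1 with library size these were r = −0.251 (permutation adjusted p = 0.44) and r = 0.019. Among the 36, none of the 16 relations passed. The strongest there was that of Egr1 with the choroid plexus sum (r = −0.493, rho = −0.479, permutation adjusted p = 0.0954 and 0.125).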

How the data were processed

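Ribosome-bound RNA from the hippocampus of 71 mice was measured by pS6-TRAP and paired-end RNA-seq (50 ng of RNA, Illumina Stranded mRNA Prep, 50 bp reads). The deposited values are raw counts per gene and mouse, made by the authors with Trim Galore 0.6.7, cutadapt 3.4, HISAT2 2.2.0 and featureCounts of Subread 2.0.3 on GRCm39 from uniquely mapped reads, with no normalisation. The submitters' processing notes also list mm9. The annotation release and the strand setting of the counting are not given in the sources used here. Of the nonzero counts 68.5% were even, and 79.5% of counts from 1 to 20. If both mates of a pair were counted, the number of independent fragments is lower than the total count, and this was not tested. Sequences and coordinates came from RefSeq windows on GRCm38.p6 and the GENCODE annotation of GRCm39.

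Groups came from the labels. Genes with at least 10 counts in total were fitted in edgeR 4.0.16 (R 4.3.3, limma 3.58.1) with TMM factors and 1 quasi-likelihood model of the 12 groups. Contrasts were adjusted by Benjamini-Hochberg over all 30141 genes, and called means an adjusted p under 0.05. CPM are counts over TMM-scaled library size, log2 CPM used a prior count of 2, and CPM per kilobase divided by union exon length. Ratios were tested by exact permutation and correlations by permutation (Python 3.11.15, scipy 1.17.1). The fit was tested on simulated data. Alternatives were the DESeq2 1.42.0 Wald test, which the study itself used, other scalings and filters, the compared groups alone, a replicate block, and leaving out each mouse. Each library is 1 mouse; which mice shared a cage is not given in the sources used here. For ORM+1h and ORM+12h against home cage mice the text names, from each wider list, the called genes, at most 4 per direction, taken by adjusted p on NC ad lib. For HC zt15 against HC zt3 it names only some of the called genes. Calls between diets among the upstream genes and the listed targets are left out. The members and lists were chosen with earlier results of these data known.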

Additional observations from a re-analysis of the deposited data

Results flagged for a closer look

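In 2 of the 48 group and member combinations 1 mouse stood apart from the rest by Dixon's test at its 95% critical value, where chance gives about 1 in 20. Egr2 in NC ad lib HC zt3 replicate 2 was the highest of its group at 3.76 CPM, against a group median of 1.79 CPM. That mouse was also the highest of its group in Egr1 and Egr4. Egr4 in HFS TRF ORM+1h replicate 4 was the highest of its group at 177 CPM, against a group median of 139 CPM, and was the highest in all 4 members.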

How the results depend on the processing

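At ORM+1h all 4 members were called higher on all 3 diets under each of 7 other settings (DESeq2, its size factors in edgeR, library sizes alone, 2 other filters, the compared groups alone, a replicate block) and without each mouse, and at ORM+12h 0 members were. The zt15 calls were the less firm ones. With only the compared groups in the model, the count for HC zt15 against HC zt3 on HFS ad lib was 1, Egr2 no longer passing (edgeR adjusted p = 0.0718). Without single mice the counts ran from 0 to 1 on NC ad lib, from 0 to 2 on HFS ad lib and from 0 to 2 on HFS TRF. The mice whose removal gave 0 were NC ad lib HC zt15 replicates 4 and 6, HFS ad lib HC zt3 replicate 1 and HC zt15 replicates 5 and 6, and HFS TRF HC zt15 replicate 5. For HFS TRF against NC ad lib at ORM+12h the count ran from 0 to 1. The Pearson r of Egr2 with Egr3 was 0.260 in the HC zt3 and ORM+1h mice alone and missed the threshold. No fold change turned its direction among called results. Replicate numbers did not pair the mice, with correlations of same-numbered deviations from −0.69 to 0.71, and the replicate block left the counts at 4, 4 and 4 at ORM+1h, 0, 0 and 0 at ORM+12h and 1, 2 and 2 for zt15 against zt3. Egr2 was low in home cage mice and its fold changes carry the widest intervals of the family. With at most 6 mice per group, the intervals for differences between diets were wide and took in sizeable differences.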

Other observations

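Other genes followed the members closely over the 71 mice, as Pearson's r of log2 CPM with all differences between groups kept in, among 14698 genes with a mean of at least 1 CPM. Nearest to Egr1 were Nr4a1 (r = 0.967), an orphan nuclear receptor gene, Egr2 (0.964) and Egr4 (0.962). Nearest to Egr2 were Egr1 (0.964), the AP-1 gene Junb (0.958) and Nr4a1 (0.956), and nearest to Egr4 were the AP-1 gene Fosb (0.963), Egr1 (0.962) and Egr2 (0.949). Egr3 had other neighbours: Homer1 (0.939), which encodes a postsynaptic scaffold with an activity-induced short form, Arl5b (0.936), a small GTPase gene, and Egr4 (0.928). The differences between the ORM+1h mice and the rest enter these values, and the genes of 1 mouse share a library.

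Of the 4 peripheral myelin genes known as Egr2 targets, Pmp22 was called higher at HC zt15 than at HC zt3 on HFS TRF (log2 difference 0.60 ± 0.18, edgeR adjusted p = 0.0121), and 0 of 4 were called on NC ad lib or HFS ad lib (1 and 1 at an unadjusted p under 0.05). At zt15 the corepressor Nab2 was called higher on HFS ad lib (0.26 ± 0.07) and HFS TRF (0.36 ± 0.08), and Nab1 on NC ad lib (0.28 ± 0.09) and HFS TRF (0.31 ± 0.09).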
